A study of Homo sapiens with 18 samples.

Results

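GATA6, FOXA1, FOXA2, HNF4G, ELF3, EHF, GRHL2 and TP63 are transcription factors that set epithelial cell identity in the pancreas and in pancreatic cancer, and their messenger RNA was followed here across 6 groups of human pancreatic cancer cells. The 8 genes were taken by name from a list that was drawn up with earlier results of these data known. They are 8 of the 26485 genes in the table of normalized counts. The set was put together under a working name that also speaks of HNF1, but no HNF1 gene is among the 8. HNF4G is the only member with HNF in its symbol. The cells were L3.6pl, a pancreatic adenocarcinoma line called Par here, and a gemcitabine-resistant L3.6pl derivative called GemR, which was maintained in 64 nM gemcitabine. Par received a control siRNA (siCont), and GemR received siCont or an siRNA against STIM1 (siSTIM1), each for 48 h. All cells were then given DMSO vehicle or 500 nM thapsigargin for the last 3 h, and each of the 6 combinations was sequenced in 3 libraries. There was no Par group with siSTIM1, the labels do not say whether GemR is 1 clone, and resistance, gemcitabine in the medium and the history of the line cannot be told apart.

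GATA6 is a zinc finger factor of the foregut endoderm and, in pancreatic tumours, a standard marker of the classical subtype. FOXA1 and FOXA2 are forkhead factors that bind closed chromatin and open it for other endodermal factors, and HNF4G is a nuclear receptor of the gut and pancreas. ELF3 and EHF belong to the epithelium-specific branch of the ETS family, GRHL2 is a grainyhead factor that keeps cadherin and claudin genes active, and TP63 is the p53 relative that drives squamous, basal-like programs. Thapsigargin blocks the pump that fills the endoplasmic reticulum with calcium. STIM1 senses the emptied store and opens calcium channels in the plasma membrane, so that calcium enters the cytosol and calcineurin can activate NFAT, whose DNA core motif is GGAAA.

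The 250 bases before the start of the members were searched in RefSeq sequence (GRCh38.p14) for 7 motifs on both strands. The motifs were GGAAA, the AP-1 site TGANTCA, the cyclic AMP response element TGACGTCA, the ATF4-CHOP element TGATGNAA, the endoplasmic reticulum stress response element, the GATA site GATAAG and the forkhead site TGTTTAC. The motif GGAAA also holds GGAA, the core that ETS factors such as ELF3 and EHF bind, so the 2 kinds of match cannot be separated. A promoter entry was found for 5 of the 8 members. The 3 matches of GGAAA in ELF3 and GATA6 are printed first, with the match or its complement TTTCC in capitals. ELF3 and GATA6 were the members that responded to thapsigargin most in GemR siCont. The stretches shown are the plus strand of chr1:202010402-202010430, chr1:202010487-202010515 and chr18:22169509-22169537, where GGAAA itself is on the plus strand in the second and on the minus strand in the other two. The matches start 173, 88 and 68 bases before the RefSeq start.
ELF3 upstream match: agccgggcctgaTTTCCcagcactgcctg
ELF3 downstream match: gtctaaaggccaGGAAAtcccctccatcc
GATA6 match: ccaggctgcagtTTTCCggcagagcagta
All 3 matches fall in stretches that GENCODE 29 counts as untranslated exon of a longer ELF3 or GATA6 transcript, and therefore only 29 bases are shown of each.

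The windows of FOXA1 (chr14:37595250-37595499, minus strand), TP63 (chr3:189631139-189631388, plus strand) and the first start of EHF (chr11:34624007-34624256, plus strand) held no GGAAA and are printed whole for contrast, since FOXA1 and TP63 also rose with thapsigargin and EHF changed little. They lie outside annotated exons. The TP63 window lies before the first base of the gene, 189631416, and no start further inside the gene was searched. The counts are per gene and do not show which start was in use. Whether the lack of GGAAA in a window bears on the response of its gene was therefore not tested.
FOXA1: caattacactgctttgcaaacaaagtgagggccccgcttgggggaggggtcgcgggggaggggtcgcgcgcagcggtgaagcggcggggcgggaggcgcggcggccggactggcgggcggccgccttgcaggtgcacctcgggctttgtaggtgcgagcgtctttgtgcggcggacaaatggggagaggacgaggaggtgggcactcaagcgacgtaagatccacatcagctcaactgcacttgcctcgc
TP63: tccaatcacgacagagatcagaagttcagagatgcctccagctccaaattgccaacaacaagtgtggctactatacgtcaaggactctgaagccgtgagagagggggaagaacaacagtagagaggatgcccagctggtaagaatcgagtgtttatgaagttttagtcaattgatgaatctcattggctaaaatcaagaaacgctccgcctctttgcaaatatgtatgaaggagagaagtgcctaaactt
EHF: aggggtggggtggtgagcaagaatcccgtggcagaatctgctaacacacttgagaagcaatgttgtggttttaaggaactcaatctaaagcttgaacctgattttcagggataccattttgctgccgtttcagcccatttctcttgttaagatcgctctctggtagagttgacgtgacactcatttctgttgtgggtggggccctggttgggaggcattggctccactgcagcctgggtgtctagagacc
GGAAA was present in 55.6% of the 35116 windows of that length, so its presence in ELF3 and GATA6 does not set them apart. Of the other 6 motifs, found in 6.57% (TGANTCA), 1.65% (TGACGTCA), 3.14% (TGATGNAA), 0.0740% (the stress response element), 5.65% (GATAAG) and 2.98% (TGTTTAC) of windows, the members held 1 match. That was TGTTTAC, 196 bases before a second EHF start. A match is a description of the letters and no evidence of binding.

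Each library held between 8922439 and 16519239 reads in genes, of which 3.25% to 4.22% fell on its top 10 genes. STIM1 followed the labels. Its normalized count was 457 ± 20.6 and 431 ± 15.1 in Par (SD, n = 3, vehicle and thapsigargin), 5890.4 ± 793 and 6187 ± 115 in GemR with siCont, and 382 ± 23.7 and 309.8 ± 40.8 in GemR with siSTIM1. STIM1 was therefore 3.68 ± 0.10 log2 units higher in GemR than in Par with vehicle, and all libraries with siSTIM1 lay below those of Par. The deviation of genes from their group mean followed exon length most negatively in vehicle replicate 1 of GemR siCont (Spearman's rho of -0.505 across 12419 genes) and thapsigargin replicate 1 of GemR siSTIM1 (-0.428), and most positively in vehicle replicate 3 of GemR siCont (0.459). Results whose calls changed without the 2 of most negative trend, or without both of these GemR siCont vehicle libraries, are named below or with the processing. The epithelial markers KRT8, KRT18, KRT19, EPCAM and CDH1 were all expressed, and their summed normalized count was 62133 to 67190 per library in Par and 38106 to 57045 in GemR. Acinar (PRSS1, CPA1, CELA3A, AMY2A) and islet (INS, GCG, CHGA) markers summed to at most 6.24 and 2.98, with CPA1, AMY2A, INS and GCG at 0. Of the fibroblast markers DCN was at 0, LUM and PDGFRB were at or near 0, and COL1A1 and COL1A2 were present. The immune markers gave CD68 alone above a mean of 10, and the endothelial ones PECAM1 and CDH5. The summed fibroblast markers were 1996 to 2242 per library in Par with vehicle and 2968 to 3177 with thapsigargin, 1002 to 1237 and 1380.0 to 1523 in GemR siCont, and 1013 to 1161 and 1454 to 1732 in GemR siSTIM1. They thus moved with line and with thapsigargin. The endothelial sum was 243 to 282 and 228 to 278 in Par, 212 to 230.1 and 239.6 to 258 in GemR siCont, and 114 to 141 and 144 to 176 in GemR siSTIM1, lower under siSTIM1. The immune sum was 125 to 176 in Par, 133 to 173 in GemR siCont and 74.2 to 124 in GemR siSTIM1. The part of these markers in the results was not tested. The labels do not say whether the 3 libraries of a group came from separate cultures, so p-values measure the spread between these libraries, which may be technical. In bulk RNA, fewer expressing cells and less RNA per cell cannot be told apart.

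EHF was the most abundant of the 8 factors and GRHL2 was nearly silent. Per kilobase of exon, the mean normalized count over the 18 libraries was 476 for EHF, 256 for FOXA1, 217 for TP63, 68.1 for GATA6, 60.7 for ELF3 and 54.0 for FOXA2. HNF4G followed at 0.532 and GRHL2 at 0.108. Thus 6 of the 8 were expressed at levels within an order of magnitude of each other, and HNF4G and GRHL2 lay far below. GRHL2 (chromosome 8, 101492432 to 101669726 in GRCh38, plus strand) had 12 reads in all 18 libraries together, with 9 libraries at 0 and at most 3 reads in any. HNF4G (chromosome 8, 75407914 to 75566843, plus strand) had 46 reads, with 1 library at 0 and at most 7 in any. A count of 0 allows up to 3 reads, or 2.35 to 4.45 normalized counts depending on the library (counting error only), so no difference in GRHL2 or HNF4G was detectable at this depth and neither was tested. The other 6 genes passed the filter, a mean of at least 10, and their lowest value in any library was 20.8, so none passed only through a group where it was high.

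**Figure D1:**
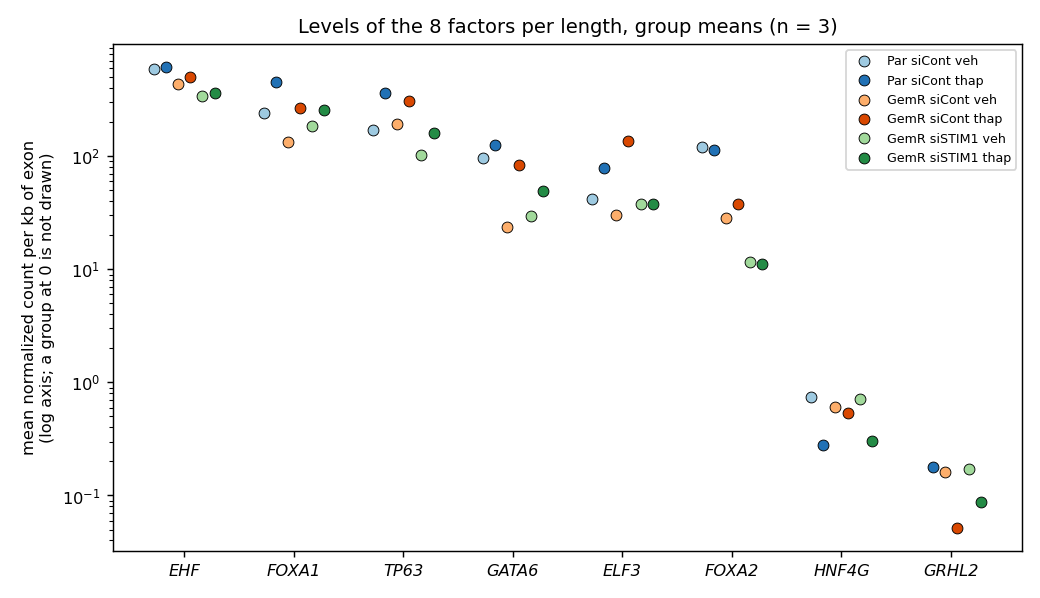
Mean normalized count per kilobase of exon (log axis) of the 8 factors, ordered by overall level, with 1 point for each of the 6 groups (mean of 3 libraries). EHF, FOXA1 and TP63 are highest, FOXA2 spreads most among the expressed genes, and HNF4G and GRHL2 lie below 1, with GRHL2 at 0 and so not drawn in Par with vehicle.

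The 6 expressed factors ordered the groups differently. GATA6 was highest in Par with thapsigargin, followed by Par with vehicle, GemR siCont with thapsigargin, GemR siSTIM1 with thapsigargin, GemR siSTIM1 with vehicle and GemR siCont with vehicle. Only the last neighbours in that order overlapped in their libraries. ELF3 was highest in GemR siCont with thapsigargin, then in Par with thapsigargin, and the ranges of each neighbouring pair among the other 4 groups overlapped. FOXA2 kept 3 tiers, both Par groups above both GemR siCont groups above both GemR siSTIM1 groups, with overlap inside the Par and the siSTIM1 tiers. EHF had the same tiers over a far smaller range, with the same 2 overlaps. FOXA1 was highest in Par with thapsigargin and lowest in GemR siCont with vehicle, and the thapsigargin groups of GemR overlapped each other in range, as did Par with vehicle and GemR siSTIM1 with thapsigargin. TP63 was highest in Par with thapsigargin and lowest in GemR siSTIM1 with vehicle, and GemR siCont with vehicle, Par with vehicle and GemR siSTIM1 with thapsigargin overlapped as neighbours. From the lowest to the highest group mean, the level differed 10.8-fold for FOXA2, 5.28-fold for GATA6, 4.55-fold for ELF3, 3.51-fold for TP63, 3.39-fold for FOXA1 and 1.80-fold for EHF.

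**Figure D2:**
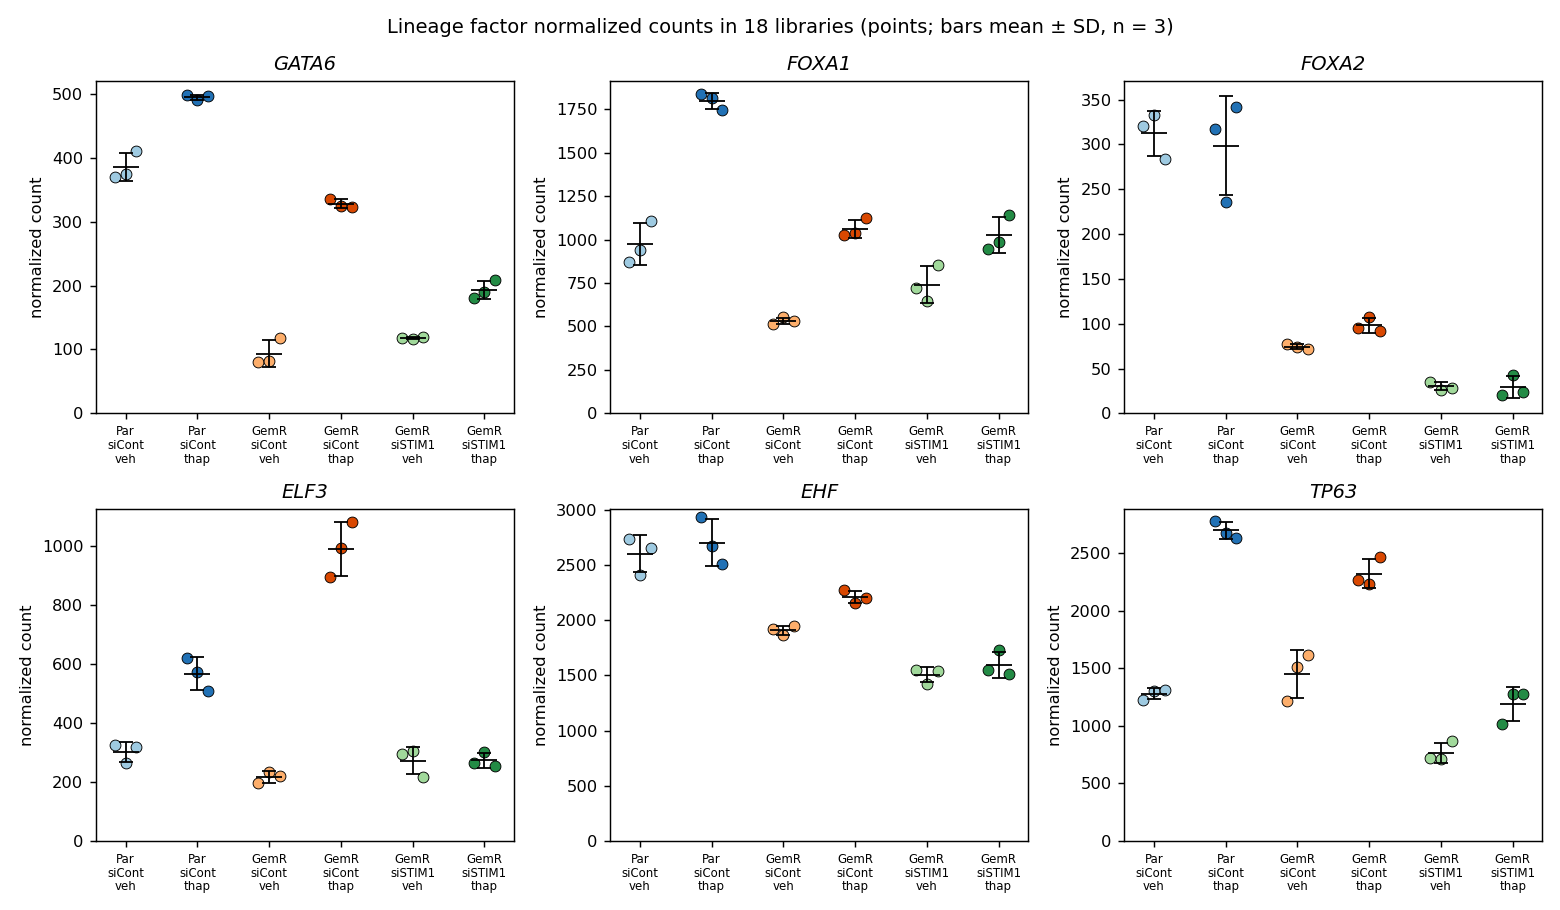
Normalized counts (vertical axis, starting at 0) of the 6 expressed factors in each of the 18 libraries (points), with the mean and SD of 3 libraries per group (bars). ELF3 reaches 894 to 1079 in GemR siCont with thapsigargin and stays at 253 to 302 in GemR siSTIM1 with thapsigargin, while FOXA2 is highest in Par, lower in GemR siCont and lowest in GemR siSTIM1.

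Thapsigargin for 3 h raised ELF3, GATA6, FOXA1 and TP63 in Par and in GemR with siCont, and ELF3 and GATA6 rose by more in GemR siCont than in either of the other settings. The comparison of thapsigargin with vehicle asks how these genes respond to the drug. Emptied calcium stores and other effects of the drug cannot be told apart in it. Differences are log2 fold changes of normalized count + 1 from limma, with their standard error, and the Benjamini-Hochberg correction ran over all 13096 tested genes. An adjusted p below 0.05 is named a call. In Par, 4 of the 6 tested factors rose and 0 fell, where 40.1% of all tested genes were called, 20.5% higher and 19.7% lower. In GemR siCont, 5 rose and 0 fell, against 33.6% of genes called, 17.9% higher and 15.8% lower. In GemR siSTIM1, 3 rose and 0 fell, against 24.3% of genes called, 12.5% higher and 11.9% lower. With quantile normalization the share of calls that were higher went from 51.0% to 42.1% in Par, from 53.1% to 42.4% in GemR siCont and from 51.3% to 46.0% in GemR siSTIM1. The 3 comparisons have no library in common, but the differences between them share one response, that of GemR siCont. Beside each count of 0 from limma in a comparison of 6 factors, the count at an unadjusted p under 0.05 and the counts by edgeR and DESeq2 were also 0, with 1 exception given below.

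ELF3 (chromosome 1, 202007945 to 202017188 in GRCh38, plus strand), the ETS factor induced by inflammatory signals in epithelia, gave the widest contrast. In Par its normalized counts were 324, 264 and 317 with vehicle and 619, 572 and 508 with thapsigargin. In GemR siCont they were 197, 235 and 219.7 with vehicle and 894, 993 and 1079 with thapsigargin. In GemR siSTIM1 they were 295, 304 and 218 with vehicle and 265, 302 and 253 with thapsigargin. The thapsigargin libraries stood clear of vehicle in Par and in GemR siCont, and the ranges overlapped in GemR siSTIM1. The response was 0.91 ± 0.13 in Par (adjusted p = 9.99e-06) and 2.18 ± 0.13 in GemR siCont (4.53-fold, adjusted p = 5.52e-11). In GemR siSTIM1 it was 0.02 ± 0.13 (adjusted p = 0.951), with a 95% interval of -0.25 to 0.28. The response of GemR siCont exceeded that of Par by 1.27 ± 0.18 (adjusted p = 5.01e-05), and the response of GemR siSTIM1 minus that of GemR siCont was -2.16 ± 0.18 (adjusted p = 6.68e-07). In the authors' deposited table of GemR siSTIM1, the log2 fold change of ELF3 was 0.0079 with an adjusted p of 0.979.

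GATA6 (chromosome 18, 22169443 to 22202528, plus strand) rose in all 3 settings and most in GemR siCont. Its normalized counts in Par were 371, 374 and 411 with vehicle and 498, 489.9 and 496 with thapsigargin. In GemR siCont they were 80.2, 82.3 and 118 with vehicle and 336, 324 and 324 with thapsigargin. In GemR siSTIM1 they were 118, 117 and 119 with vehicle and 181, 189 and 208 with thapsigargin. In each setting all 3 thapsigargin libraries lay above all 3 vehicle libraries. The response was 0.36 ± 0.12 in Par (1.28-fold, adjusted p = 0.0177), 1.82 ± 0.12 in GemR siCont (3.53-fold, adjusted p = 2.38e-10) and 0.70 ± 0.12 in GemR siSTIM1 (1.62-fold, adjusted p = 0.000129). The call in Par was lost without vehicle replicate 1 (adjusted p = 0.0625), vehicle replicate 2 (0.0549) or thapsigargin replicate 1 (0.0504). GemR siCont responded more than Par by 1.46 ± 0.16 (adjusted p = 4.39e-06), and the difference of GemR siSTIM1 from GemR siCont was -1.12 ± 0.16 (adjusted p = 0.000382). With thapsigargin GATA6 in GemR siCont was at 328 ± 6.81, and in Par with vehicle at 385 ± 22.2. The libraries of these groups did not overlap, while the authors' deposited table gives a log2 fold change of -0.23 between them with an adjusted p of 0.0611.

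FOXA1 (chromosome 14, 37589984 to 37596059, minus strand) rose by similar factors in Par and GemR siCont. Its counts in Par were 869, 941 and 1105 with vehicle and 1835, 1815 and 1748 with thapsigargin. In GemR siCont they were 513, 552 and 529 with vehicle and 1024, 1035 and 1122 with thapsigargin. In GemR siSTIM1 they were 720.3, 647 and 855 with vehicle and 947, 987 and 1140.3 with thapsigargin. Treated and untreated libraries did not overlap in any setting. The response was 0.90 ± 0.10 in Par (adjusted p = 6.06e-07), 0.99 ± 0.10 in GemR siCont (adjusted p = 1.64e-07) and 0.47 ± 0.10 in GemR siSTIM1 (adjusted p = 0.00131). GemR siCont and Par differed in response by 0.10 ± 0.14 (adjusted p = 0.721), with a 95% interval of -0.19 to 0.39. The response in GemR siSTIM1 differed from that in GemR siCont by -0.52 ± 0.14 (adjusted p = 0.0390). This last call was not firm: it was lost in 14 of 22 alternatives, with an adjusted p of up to 0.164, among them the fit without the 2 libraries of most negative length trend (0.0507) and that without vehicle replicate 3 of GemR siSTIM1 (0.115).

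TP63 (chromosome 3, 189631416 to 189897279, plus strand), the squamous factor, rose in all 3 settings too. Its counts in Par were 1221, 1306 and 1312 with vehicle and 2779, 2676 and 2631 with thapsigargin. In GemR siCont they were 1215, 1512 and 1617 with vehicle and 2265, 2231 and 2469 with thapsigargin. In GemR siSTIM1 they were 724, 712 and 866 with vehicle and 1016, 1279 and 1273 with thapsigargin. The ranges stood apart in each setting. The response was 1.07 ± 0.10 in Par (2.11-fold, adjusted p = 8.80e-08), 0.69 ± 0.10 in GemR siCont (adjusted p = 2.95e-05) and 0.63 ± 0.10 in GemR siSTIM1 (adjusted p = 0.000116). The GemR siCont response minus the Par response was -0.38 ± 0.15 (adjusted p = 0.0881), and it was called at -0.51 (adjusted p = 0.0045) without vehicle replicate 1 of GemR siCont. The GemR siSTIM1 response minus that of GemR siCont was -0.06 ± 0.15 (adjusted p = 0.838), with a 95% interval of -0.37 to 0.25.

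EHF changed little with thapsigargin, and FOXA2 passed no test of it. EHF (chromosome 11, 34621093 to 34661057, plus strand) had counts of 2738, 2414 and 2657 with vehicle and 2934, 2671 and 2505 with thapsigargin in Par. In GemR siCont it had 1924, 1865 and 1943 with vehicle and 2271, 2156 and 2204 with thapsigargin, and in GemR siSTIM1 1549.8, 1426 and 1538 with vehicle and 1552, 1728 and 1510.1 with thapsigargin. The groups separated in GemR siCont alone. There the response was 0.21 ± 0.07 (1.16-fold, adjusted p = 0.0276), and the call was lost without vehicle replicate 2 (0.0756), thapsigargin replicate 1 (0.0939) or thapsigargin replicate 3 (0.0649), with quantile normalization (0.0774), in the fit of only the libraries compared (0.0699) and without both vehicle replicates 1 and 3 of GemR siCont (0.0741). In Par the difference was 0.05 ± 0.07 (adjusted p = 0.580) and in GemR siSTIM1 0.08 ± 0.07 (adjusted p = 0.452).

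FOXA2 (chromosome 20, 22581005 to 22585455, minus strand) had counts of 321, 332.5 and 284 with vehicle and 317, 236 and 342 with thapsigargin in Par. In GemR siCont it had 76.8, 74.4 and 72.0 with vehicle and 94.95, 107 and 92.1 with thapsigargin. In GemR siSTIM1 it had 35.3, 26.4 and 28.8 with vehicle and 20.8, 43.0 and 23.4 with thapsigargin. The treated libraries lay above the untreated ones in GemR siCont, yet the test did not call the difference of 0.39 ± 0.20 (adjusted p = 0.148). In Par and in GemR siSTIM1 the ranges overlapped, with differences of -0.08 ± 0.20 (adjusted p = 0.785) and -0.12 ± 0.20 (adjusted p = 0.753).

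Across the 6 factors, the response differed between GemR siCont and Par for 2, ELF3 and GATA6, both larger in GemR, with 0 smaller. The exception among the counts of 0 is TP63, whose response difference, GemR minus Par, of -0.38 ± 0.15 had an unadjusted limma p of 0.0165 and was called by DESeq2 (adjusted p = 0.0466). Of all tested genes 14.8% were called in that difference, 7.14% with a larger value in GemR and 7.66% with a smaller one. The response differed between GemR siSTIM1 and GemR siCont for 3 factors, ELF3, GATA6 and FOXA1, all with a smaller value under siSTIM1, and 0 had a larger one. In that difference 4.41% of all genes were called, 1.50% higher and 2.90% lower, and with quantile normalization the higher share of the calls was 45.5% in place of 34.1%. FOXA2, EHF and TP63 passed neither test.

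**Figure D3:**
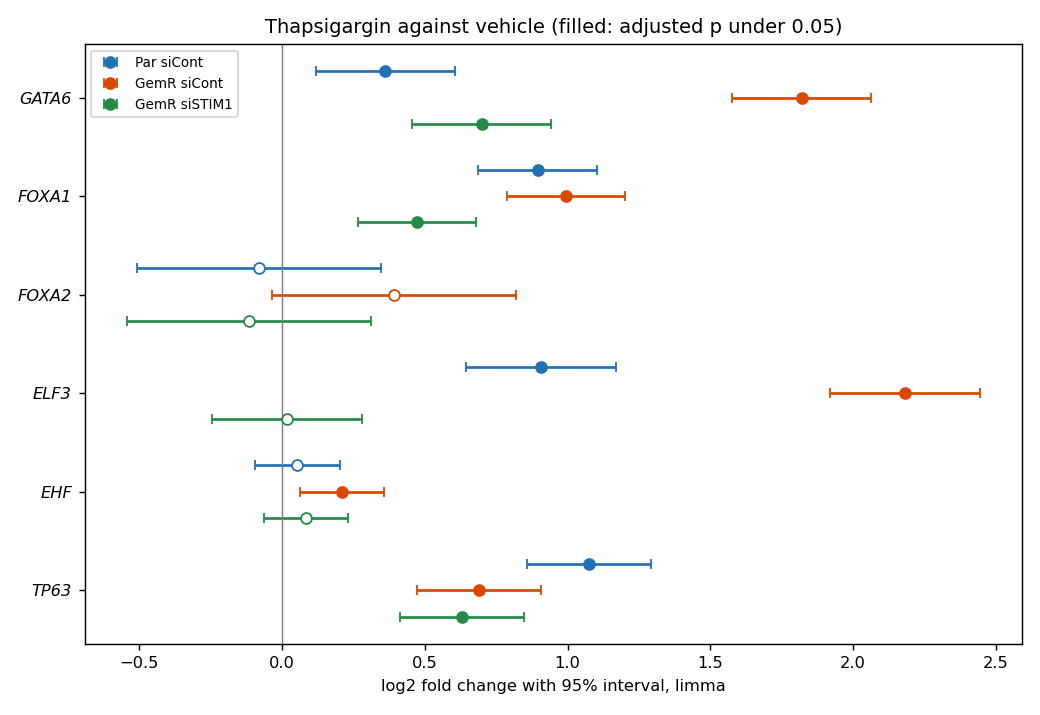
Log2 fold change of thapsigargin against vehicle (horizontal axis, with 95% intervals from limma) for the 6 expressed factors in Par siCont, GemR siCont and GemR siSTIM1, with filled points for adjusted p under 0.05. ELF3 spans 0.02 in GemR siSTIM1 to 2.18 in GemR siCont, and TP63 is the one rising factor whose value is highest in Par.

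With vehicle, GemR had less of the endodermal and epithelial factors than Par. FOXA2 and GATA6 differed most and TP63 did not pass the test. The vehicle libraries of both lines also enter their thapsigargin responses, so the comparisons share samples. Of the 6 tested factors 5 were lower and 0 higher, where 38.2% of all genes were called, 18.1% higher and 20.1% lower. The mean normalized count of FOXA2 was 74.4 ± 2.43 in GemR siCont and 312 ± 25.4 in Par (SD, n = 3), a log2 difference of -2.05 ± 0.20 (4.15-fold lower, adjusted p = 1.93e-07). GATA6 was at 93.6 ± 21.5 and 385 ± 22.2, a difference of -2.05 ± 0.12 (4.14-fold lower, adjusted p = 6.03e-11). The libraries of the lines were far apart for both genes. FOXA1 was 1.82-fold lower (-0.86 ± 0.10, adjusted p = 1.26e-06), ELF3 1.39-fold lower (-0.47 ± 0.13, adjusted p = 0.00591, but 0.128 without vehicle replicates 1 and 3 of GemR siCont) and EHF 1.36-fold lower (-0.44 ± 0.07, adjusted p = 5.92e-05). TP63 was at 1448 ± 208 in GemR and 1279.8 ± 50.7 in Par (0.17 ± 0.10, adjusted p = 0.212). Vehicle replicate 1 of GemR siCont, with a count of 1215, decided that outcome, since without it TP63 was called higher in GemR by 0.29 (adjusted p = 0.0150).

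With thapsigargin, ELF3 changed sides. It was 1.74-fold higher in GemR siCont than in Par (0.80 ± 0.13, adjusted p = 3.26e-05), while 4 factors remained lower, against 48.2% of all genes called, 23.2% higher and 25.0% lower. FOXA2 was 2.99-fold lower (-1.58 ± 0.20, adjusted p = 3.49e-06) and FOXA1 1.70-fold lower (-0.76 ± 0.10, adjusted p = 3.78e-06). The deficit of GATA6 was 1.51-fold (-0.59 ± 0.12, adjusted p = 0.000332) and that of EHF 1.22-fold (-0.29 ± 0.07, adjusted p = 0.00241). TP63 differed by -0.22 ± 0.10 (adjusted p = 0.0919), and it was called lower at 0.00428 without the 2 libraries of most negative length trend and at 0.000343 when only the libraries compared were fitted.

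Knockdown of STIM1 in GemR lowered FOXA2, TP63 and EHF with or without thapsigargin. With vehicle, 2 of 6 factors were higher and 3 lower under siSTIM1 than under siCont, against 42.0% of all genes called, 20.9% higher and 21.1% lower. FOXA2 stood at 30.2 ± 4.58 under siSTIM1 and 74.4 ± 2.43 under siCont (2.44-fold lower, -1.28 ± 0.20, adjusted p = 7.14e-05). TP63 stood at 767 ± 85.9 and 1448 ± 208 (1.88-fold lower, -0.91 ± 0.10, adjusted p = 1.58e-06), and EHF was 1.27-fold lower (-0.35 ± 0.07, adjusted p = 0.000796). In none of the 3 did the libraries overlap. FOXA1 was 1.38-fold higher (0.47 ± 0.10, adjusted p = 0.00104) and GATA6 1.28-fold higher (0.36 ± 0.12, adjusted p = 0.0195). The libraries of GATA6 overlapped, 80.2 to 118 against 117 to 119, and its call was lost in the fit of only the libraries compared (adjusted p = 0.156), with quantile normalization (0.22, adjusted p = 0.117), and without the 2 libraries of most negative length trend (0.0772). It was also lost without vehicle replicate 1 (0.0968) or 2 (0.0872) of GemR siCont or vehicle replicate 3 of GemR siSTIM1 (0.0515), and with edgeR (0.108) and DESeq2 (0.0942), which were run without that last library. Without vehicle replicate 3 of GemR siCont the difference was 0.53. ELF3 was just short of a call (0.31 ± 0.13, adjusted p = 0.0513). It was called by limma without vehicle replicate 3 of GemR siSTIM1 (0.46, adjusted p = 0.00687), by edgeR (0.0111) and DESeq2 (0.00381), which also lacked that library, and by limma without vehicle replicate 2 of GemR siCont (0.0431).

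With thapsigargin, 5 of the 6 were lower under siSTIM1 and 0 higher, against 36.6% of all genes called, 17.7% higher and 18.9% lower. ELF3 was at 273 ± 25.6 under siSTIM1 and 989 ± 92.5 under siCont (3.61-fold lower, -1.85 ± 0.13, adjusted p = 1.32e-09). FOXA2 was at 29.1 ± 12.2 and 98.2 ± 8.15 (3.46-fold lower, -1.79 ± 0.20, adjusted p = 1.22e-06). TP63 was 1.96-fold lower (-0.97 ± 0.10, adjusted p = 5.39e-07), GATA6 1.70-fold lower (-0.77 ± 0.12, adjusted p = 3.61e-05) and EHF 1.39-fold lower (-0.47 ± 0.07, adjusted p = 3.24e-05). FOXA1 was at 1025 ± 102 and 1060.2 ± 53.7 (-0.05 ± 0.10, adjusted p = 0.716), with a 95% interval of -0.26 to 0.15. STIM1 itself was lower in GemR siSTIM1 than in Par by the counts above. FOXA2 lay at 284 to 332.5 in the vehicle libraries of Par and at 26.4 to 35.3 in those of GemR siSTIM1.

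**Figure D4:**
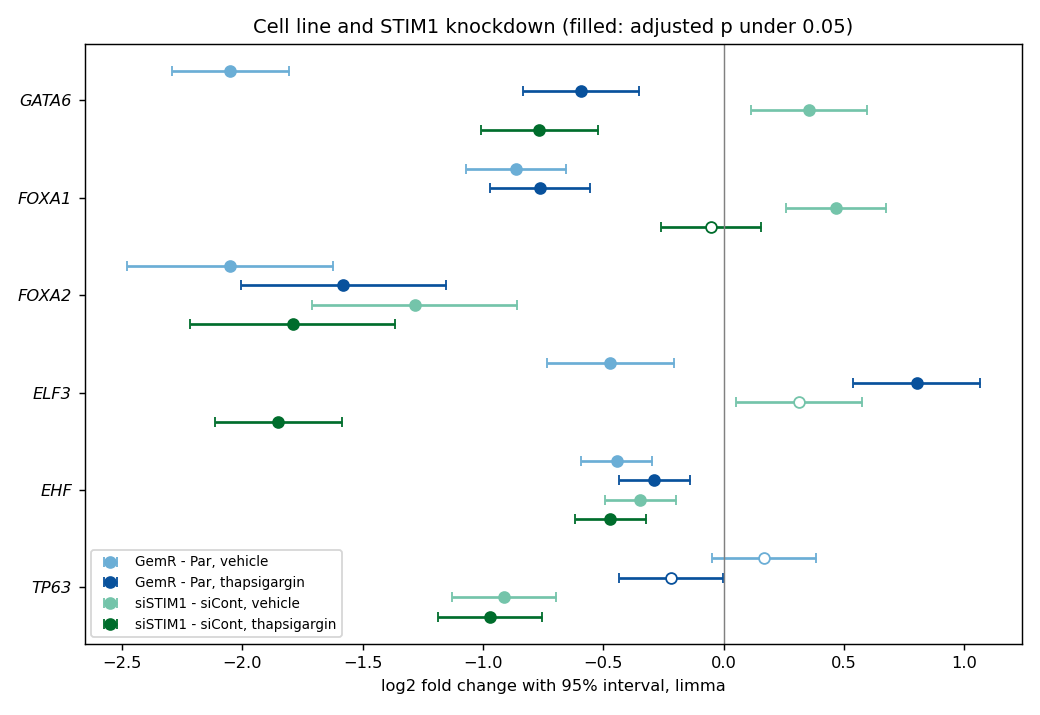
Log2 fold change (horizontal axis, 95% intervals from limma) of GemR siCont against Par siCont and of GemR siSTIM1 against GemR siCont, each with vehicle and with thapsigargin, for the 6 expressed factors, with filled points for adjusted p under 0.05. FOXA2 is below 0 in all 4 comparisons, and ELF3 is above 0 in GemR against Par with thapsigargin and at -1.85 under siSTIM1 with thapsigargin.

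Related lineage factors were read from a list of 24, of which 18 were tested. With thapsigargin, 4 rose and 5 fell in Par, 7 rose and 3 fell in GemR siCont, and 4 rose and 7 fell in GemR siSTIM1, beside the 40.1%, 33.6% and 24.3% of all tested genes called in these comparisons. The median log2 fold changes were -0.12, 0.20 and -0.27, beside -0.02, -0.03 and -0.01 for all tested genes. In the difference of GemR siSTIM1 from GemR siCont, 6 were lower and 12 did not pass, beside 2.90% of all genes lower, with a median of -0.51 beside 0.00 for all genes. KLF4, a zinc finger factor of epithelial differentiation, rose by 1.49 ± 0.11, 3.18 ± 0.11 and 2.12 ± 0.11 in Par, GemR siCont and GemR siSTIM1 (adjusted p = 2.7e-09, 3.4e-14 and 3.0e-11). GRHL1, the grainyhead relative of the silent GRHL2, rose by 1.23 ± 0.13, 2.17 ± 0.13 and 1.37 ± 0.13 (adjusted p = 4.1e-07, 1.2e-10 and 1.5e-07), from 62.7 ± 4.33 to 286 ± 3.90 in GemR siCont. SOX9, the ductal progenitor factor, went in opposite directions in the lines. It changed by -1.77 ± 0.13 in Par (adjusted p = 1.4e-09) and rose by 1.07 ± 0.13 in GemR siCont (adjusted p = 1.6e-06), a difference of 2.84 ± 0.18 between the lines (adjusted p = 2.9e-09). In GemR siSTIM1 SOX9 changed by -0.20 ± 0.13 (adjusted p = 0.29). KLF5, another zinc finger factor of epithelia, rose by 1.24 ± 0.09, 1.55 ± 0.09 and 1.30 ± 0.09 (adjusted p = 2.4e-09, 8.3e-11 and 2.1e-09). GATA2, a relative of GATA6 from blood and vessel development, fell in all 3 settings, with values of -1.84 ± 0.09, -1.22 ± 0.09 and -1.70 ± 0.09 (adjusted p = 8.3e-12, 4.0e-09 and 5.4e-11). The responses of KLF4, GRHL1, SOX9 and GATA2 under siSTIM1 minus those under siCont were -1.06 ± 0.16, -0.81 ± 0.19, -1.27 ± 0.18 and -0.48 ± 0.13 (adjusted p = 0.00046, 0.017, 0.00025 and 0.043).

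Genes of the epithelial barrier and of epithelial splicing, among them direct targets of grainyhead and ETS factors, were lower in GemR. Of 18 listed genes 15 were tested, and with vehicle 13 of them were lower in GemR siCont than in Par and 2 did not pass, beside 20.1% of all genes lower, with a median of -1.01 beside 0.00 for all genes. CLDN4, a tight junction claudin, had a log2 difference of -2.25 ± 0.24 (adjusted p = 4.8e-07), CLDN7 one of -2.04 ± 0.12 (adjusted p = 1.8e-10) and CLDN3 one of -1.71 ± 0.16 (adjusted p = 1.1e-07). With thapsigargin 4 rose and 2 fell in Par, 6 rose and 2 fell in GemR siCont, and 5 rose and 2 fell in GemR siSTIM1, with medians of 0.00, 0.17 and 0.22. The shares of all genes higher and lower were 20.5% and 19.7%, 17.9% and 15.8%, and 12.5% and 11.9%. In Par the list's share was thus near that of all genes. CLDN4 rose by 1.26 ± 0.24, 4.46 ± 0.24 and 2.13 ± 0.24 (adjusted p = 0.00030, 1.8e-11 and 1.1e-06). CDH1, which encodes E-cadherin, rose by 1.39 ± 0.14, 2.34 ± 0.14 and 0.83 ± 0.14 (adjusted p = 1.7e-07, 9.5e-11 and 0.00015). The siSTIM1 response was smaller than the siCont response for CLDN4 (-2.33 ± 0.34, adjusted p = 0.00034), CDH1 (-1.51 ± 0.20, adjusted p = 0.00011) and CLDN3 (-1.10 ± 0.23, adjusted p = 0.0084), the 3 listed genes called lower there, beside 2.90% of all genes lower.

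**Figure D5:**
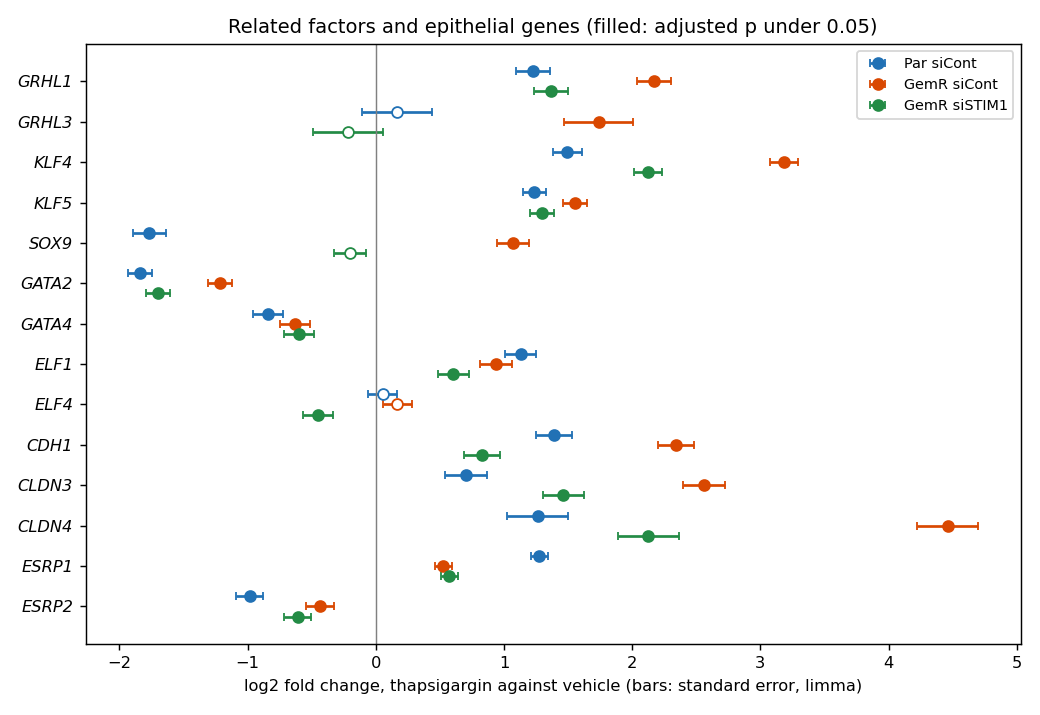
Log2 fold change of thapsigargin against vehicle (horizontal axis, bars show the standard error from limma) for lineage factors related to the members and for epithelial genes, in Par siCont, GemR siCont and GemR siSTIM1, with filled points for adjusted p under 0.05. CLDN4 and KLF4 reach 4.46 and 3.18 in GemR siCont, and SOX9 lies at -1.77 in Par and 1.07 in GemR siCont.

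GATA6 and TP63 stand for the classical and the basal-like subtype, and under siSTIM1 with vehicle most called classical genes were higher and most called basal-like genes lower. Of 25 classical-subtype genes 10 were tested. In GemR siCont against Par with vehicle 6 were lower and 4 did not pass, beside 20.1% of all genes lower, with a median of -1.32, led by TSPAN8 (-3.57 ± 0.13, adjusted p = 1.1e-13), CEACAM6 (-2.79 ± 0.17, adjusted p = 1.2e-10) and CEACAM5 (-1.89 ± 0.21, adjusted p = 6.8e-07). Under siSTIM1 with vehicle 5 were higher and 1 lower, beside 20.9% and 21.1% of all genes, with a median of 0.79 beside 0.00 for all genes. Among the higher were the trefoil factor TFF2 (1.34 ± 0.20, adjusted p = 2.8e-05) and TSPAN8 (0.81 ± 0.13, adjusted p = 8.1e-05). The lower one was AGR2 (-0.71 ± 0.23, adjusted p = 0.021). Under siSTIM1 with thapsigargin 5 were higher and 2 lower, beside 17.7% and 18.9% of all genes, with a median of 0.71. GATA6 itself was 1.70-fold lower under siSTIM1 with thapsigargin, and its call as higher with vehicle was not firm, as given above. In the response to thapsigargin 1 of the 10 was higher and 1 lower in Par, beside 20.5% and 19.7% of all genes. In GemR siCont 2 were higher, beside 17.9% of all genes, and in GemR siSTIM1 2 were higher, beside 12.5%. With 10 genes tested, these counts were not read as a result for the list. Of 26 basal-like and squamous genes 15 were tested. Under siSTIM1 with vehicle 1 was higher and 11 lower, beside 20.9% and 21.1% of all genes, with a median of -0.78. Under siSTIM1 with thapsigargin 3 were higher and 9 lower, beside 17.7% and 18.9% of all genes, with a median of -0.65. The lowest values with vehicle were those of the keratins KRT6A (-3.09 ± 0.23, adjusted p = 5.2e-09) and KRT5 (-1.67 ± 0.07, adjusted p = 5.5e-12), followed by S100A2 (-1.39 ± 0.14, adjusted p = 4.4e-07), beside the -0.91 of TP63. In GemR siCont against Par with vehicle, where TP63 passed no test, 5 of the 15 were higher and 3 lower, beside 18.1% and 20.1% of all genes. The median of the list was 0.23 beside 0.00 for all genes. KRT5, among the 3 lower genes and thus opposite in sign to that median, was at -3.03 ± 0.07 (adjusted p = 2.0e-16).

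Of 10 factors and markers of epithelial-mesenchymal transition 8 were tested. In GemR siCont against Par with vehicle 2 were higher and 1 lower, with a median of 0.15, and 38.2% of all genes were called there, so the list's share was near that of all genes. SNAI2, a repressor of E-cadherin, was higher by 1.07 ± 0.09 (adjusted p = 1.4e-08), and VIM, the mesenchymal filament protein, by 0.22 ± 0.08 (adjusted p = 0.028). The gene called lower was SNAI1, at -1.27 ± 0.37 (adjusted p = 0.011), with a low mean normalized count of 24.8. The epithelial repressor ZEB1 was at 0.35 ± 0.16 (adjusted p = 0.080). Under siSTIM1 with vehicle SNAI2 was lower, at -0.81 ± 0.09 (adjusted p = 8.0e-07), while FN1, which encodes fibronectin, was higher by 2.38 ± 0.18 (adjusted p = 9.0e-09).

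Of 6 noncoding RNAs and genes beside the members 4 were tested, and the genes flanking TP63 on chromosome 3 differed most. TPRG1 was at 101 ± 8.64 in GemR siCont and 16.7 ± 5.34 in GemR siSTIM1 with vehicle (-2.57 ± 0.28, adjusted p = 7.6e-07), and at 77.4 ± 13.6 and 7.70 ± 3.24 with thapsigargin (-3.24 ± 0.28, adjusted p = 2.8e-08). P3H2, which encodes a collagen prolyl hydroxylase, was at 301 ± 26.3 in Par with vehicle, while GemR had 705 ± 12.5 with siCont and 1665 ± 27.6 with siSTIM1. It was thus higher in GemR siCont than in Par (1.23 ± 0.08, adjusted p = 2.2e-10) and higher again under siSTIM1 (1.24 ± 0.08, adjusted p = 4.8e-10), where TP63 and TPRG1 were lower. MIPOL1, beside FOXA1, rose with thapsigargin in Par (0.51 ± 0.12, adjusted p = 0.0021) and was at -0.02 ± 0.12 in GemR siCont (adjusted p = 0.90), a difference of -0.53 ± 0.17 between them (adjusted p = 0.039). The library kit does not mark strand, so reads from the exons that GATA6 shares with GATA6-AS1, ELF3 with ELF3-AS1 and FOXA1 with TTC6 cannot be told apart. GATA6-AS1 had 0 to 7.12 normalized counts per library beside the 80.2 to 498 of GATA6. LINC00261, the noncoding RNA next to FOXA2, had 0 to 10.2. TTC6, which overlaps FOXA1 on the other strand, was at 52.6 ± 17.2 in Par with vehicle and 61.4 ± 8.69 with thapsigargin, and it was called in none of the 9 comparisons of limma.

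The genes most like each factor were taken as those with the smallest root mean square difference in centred log2 value over the 18 libraries, among 10941 genes with a mean of at least 50. GATA6, whose own SD was 0.89, was followed most closely by ST6GALNAC4 (0.284), OCLN (0.292), which encodes the tight junction protein occludin, and PDK4 (0.302). ELF3 (SD 0.77) was followed by EOMES (0.359), FAM83B (0.376) and TIAM1 (0.377). No member was among the nearest genes of another. FOXA2 (SD 1.39) had ARRDC4 (0.381), LRIG1 (0.448) and PTPN20 (0.458), and FOXA1 (SD 0.55) had TMEM214 (0.158), CNOT3 (0.160) and HEATR5A (0.163). TP63 (SD 0.62) had PROSER1 (0.182), NRG1 (0.191), a ligand of ERBB receptors, and TNFRSF10B (0.214), and EHF (SD 0.33) had WDR37 (0.111), SORT1 (0.115) and PCCB (0.115).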

How the data were processed

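Messenger RNA of 18 libraries, 3 in each of 6 groups, was sequenced after TruSeq RNA v2 preparation, per the labels' protocols. The submitters' processing notes name hg38, STAR 2.6.0c, HTSeq 0.11.1 and DESeq2, while the gene annotation is not given in the sources used here. Normalized counts were deposited by the authors and treated as a signal: each column is a whole read count scaled by one library-wide factor (whole reads were recovered for 100% of values within 0.01). The authors' comparison tables give, per the file headers, log2 fold changes with adjusted p-values. Reads ranged from 8922439 to 16519239 per library, and 0 columns were left unused.

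From these, log2(normalized count + 1) was fitted with limma 3.58.1 (trend, R 4.3.3) for 13096 genes (mean normalized count 10 or more), with 1 mean per group over all 18 libraries and 12 residual degrees of freedom. Tests were two-sided for 9 comparisons, with Benjamini-Hochberg adjustment over the genes of each. Folds on this scale understate changes of low genes. On simulated data of 13096 genes, the Par thapsigargin comparison recovered 67.2%, 100% and 100% of changes of 0.5, 1 and 2 log2 units with 15 false calls, and the siSTIM1 difference in response 26.9%, 92.5% and 100% with 6. The simulation gave every gene the same dispersion, changed only genes with a mean of at least 50, and held no length trend. Its figures are therefore a check of the method and not the power or error rate of the tests on these libraries. Alternatives were other pseudocounts (0.5 and 5), no filter, quantile normalization, only the libraries compared, a block for replicate number, each library left out, and edgeR 4.0.16 and DESeq2 1.42.0 on reads recovered for 17 libraries. The step of GemR siSTIM1 vehicle replicate 3 (0.993) lay too near 1 to be checked, so it was left out of count tests. Gene positions and exon lengths came from GENCODE 29 (GRCh38). Named genes were the members, STIM1, up to 4 called genes per list and comparison with the largest change and a mean of at least 50 (or up to 2 others as values), and the 3 genes most like each member. The text names some of the genes this rule selects and gives them in other comparisons too. GRHL1 in Par, SOX9 in the GemR thapsigargin comparisons, GATA2 in the siSTIM1 difference, and the plotted GATA4 and GRHL3 fall outside it and were chosen after their values were seen. The same holds for SNAI1 in GemR against Par with vehicle and AGR2 under siSTIM1 with vehicle. The members and lists were chosen with earlier results of these data known.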

Additional observations from a re-analysis of the deposited data

Results flagged for a closer look

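Tests of the difference between responses set apart 5 member results. The thapsigargin response of GemR siCont exceeded that of Par siCont by 1.27 ± 0.18 log2 units for ELF3 (adjusted p = 5.01e-05, limma) and by 1.46 ± 0.16 for GATA6 (adjusted p = 4.39e-06). The response of GemR siSTIM1 minus that of GemR siCont was -2.16 ± 0.18 for ELF3 (adjusted p = 6.68e-07), -1.12 ± 0.16 for GATA6 (adjusted p = 0.000382) and -0.52 ± 0.14 for FOXA1 (adjusted p = 0.0390). Both differences use the response of GemR siCont. All groups held 3 libraries, too few for a test of single libraries that stand apart.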

How the results depend on the processing

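Of 54 member results (6 factors in 9 comparisons), 37 were called, 32 of them in every alternative run, and 5 lost their call somewhere: ELF3 in GemR against Par with vehicle (-0.35 without GemR siCont vehicle replicates 1 and 3), GATA6 with thapsigargin in Par, GATA6 under siSTIM1 with vehicle, EHF with thapsigargin in GemR siCont, and FOXA1 in the siSTIM1 difference. None of the 37 reversed, and 5 results that were not called gained a call somewhere. Over all alternatives 870 member values kept direction and call, 32 lost the call, 16 gained it and 18 changed sign, the last all among results that were not called. The cause was not tested. Changes of sign were the following. EHF with thapsigargin in Par was -0.049 with quantile normalization and -0.0070 to 0.11 when single libraries were left out. FOXA2 ranged from -0.19 to 0.080 in Par and from -0.43 to 0.082 in GemR siSTIM1, with 0.082 without the 2 libraries of most negative length trend, an alternative chosen after seeing the data, as was leaving out the 2 of largest absolute trend, which leaves GemR siCont vehicle replicate 2 alone, assumed to vary like the other groups. ELF3 in GemR siSTIM1 ranged from -0.13 to 0.10, the lowest by limma without GemR siSTIM1 vehicle replicate 3, and was -0.11 by edgeR and -0.13 by DESeq2, which lacked the same library. FOXA1 under siSTIM1 with thapsigargin ranged from -0.13 to 0.0019, with 0.0019 without the 2 of most negative trend. TP63 in the siSTIM1 difference ranged from -0.14 to 0.061, with 0.17 without the 2 of most negative and 0.013 without the 2 of largest absolute trend, and on the 17 libraries 0.071 by edgeR, 0.050 by DESeq2 and 0.030 by limma. FOXA2 in the siSTIM1 difference was called (-0.82, adjusted p = 0.0487) without GemR siSTIM1 thapsigargin replicate 2.

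Counts of all called genes moved by more than 1.5 times in a few alternatives. With only the libraries compared they were 2843 (thapsigargin in GemR siCont, 4402 in the full model), 3129 (GemR against Par with vehicle, 5000), 3294 (siSTIM1 with vehicle, 5496) and 317 (the siSTIM1 difference, 577). The siSTIM1 difference gave 346 by edgeR and 341 by limma on the same 17 libraries, and 323 to 1216 with single libraries left out, the extremes without GemR siSTIM1 vehicle replicate 1 and GemR siCont vehicle replicate 3, with 334, 338 and 372 without GemR siCont thapsigargin replicates 1 and 3 and GemR siSTIM1 thapsigargin replicate 1. Without the 2 of largest absolute trend, counts were 2895 (thapsigargin in GemR siCont), 3373 (siSTIM1 with vehicle) and 322 (the siSTIM1 difference). The difference of GemR from Par, 1938 in the full model, gave 1529 to 2943, the highest without GemR siCont vehicle replicate 1, and 3852 without the 2 of most negative trend.

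Libraries with the same number did not deviate together in every pair: in GemR siSTIM1 their correlations over 13096 genes were -0.177, -0.082 and 0.078, so the numbers were not taken as pairs. With a replicate block the counts of called genes stayed within 1.5 times, 5472 in Par with thapsigargin and 679 in the siSTIM1 difference, no called member was lost, and TP63 gained a call in GemR against Par with thapsigargin (adjusted p = 0.0441) and in the difference of GemR from Par (adjusted p = 0.0378). Depth left HNF4G and GRHL2, with 46 and 12 reads in all, out of reach.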
